A study of Mus musculus with 21 samples.

Results

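Fibroblasts of melanoma primary tumors were compared with fibroblasts of unchallenged lung in single-cell RNA-sequencing libraries of mT/mG mice. A barcode was taken as a fibroblast when it held a unique molecular identifier (UMI, 1 captured RNA molecule) of at least 3 of the 6 genes *Col1a1*, *Col1a2*, *Col3a1*, *Dcn*, *Lum* and *Mgp*, no UMI of the leukocyte gene *Ptprc*, the endothelial gene *Pecam1*, the epithelial gene *Epcam* or the ciliated cell gene *Sec14l3*, and less than 0.5% of its UMIs from *Pmel*, *Dct*, *Mlana* and *Tyrp1*, the pigment genes of melanoma cells. Of 110283 barcodes in the series, 41869 belong to the libraries of this comparison, and 1361 of these met the rule in libraries with 20 or more such cells, 1010 from primary tumor and 351 from unchallenged lung. Libraries with identical counts under 2 names were used once. Among them, primary tumor replicate 5 also appears under a library name that was not used, and primary tumor replicate 6 also appears as replicate 8. The counts of all fibroblasts of a library were summed, so a library and not a cell is the replicate.

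All hosts carried the mT/mG reporter allele, a membrane tdTomato that switches to membrane EGFP after Cre. The study's methods state that the model had no Cre, so every host cell stayed red. The primary tumor group came from young adult mice that received a subcutaneous fragment of the MT-ret melanoma, which carries no fluorescent label, and whose tumor was resected at a size limit. The unchallenged lung group came from lungs without tumor, and no source states their age. Cells were sorted as living tdTomato+ or as living tdTomato+ CD45-, and no source says which library had which sort. Of the cells with at least 3 of the fibroblast genes, 39.7, 0.922 and 0.0863% held a *Ptprc* UMI in primary tumor replicates 4, 5 and 6. In unchallenged lung replicates 4, 5 and 6 these shares were 17.2, 14.1 and 73.3%. The sort may thus differ between the tissues and within primary tumor, and its part in the differences was not tested. The comparison therefore differs in organ, skin against lung, as well as in the presence of a tumor, and these cannot be told apart. The sample labels give lung as the tissue of every library, while the names of the primary tumor libraries in the deposited cell table give skin. The library names in that table give each fitted library a mouse number of its own, but libraries with identical counts carry different mouse numbers, so the animals are not settled and the p-values measure the spread between these libraries.

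Fibroblasts build and remodel the extracellular matrix. In the lung they lie in the walls of alveoli and around large airways and vessels. There they store retinoids and lipids and keep the transcription factors of their embryonic position. Dermal and subcutaneous fibroblasts arise from other mesoderm and carry other Hox genes. In tumors, fibroblasts are known as cancer-associated fibroblasts (CAFs) and are often divided into matrix-producing, contractile and cytokine-producing kinds.

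The fitted libraries were replicates 4, 5 and 6 of either group. Primary tumor had 167, 128 and 715 fibroblasts with 1006091, 712405 and 3029357 UMIs, and unchallenged lung had 45, 104 and 202 fibroblasts with 245921, 628136 and 398239 UMIs. The median fibroblast held 3540 to 5934 UMIs in 5 libraries and 1387 in unchallenged lung replicate 6, in which 85.8% of the cells with 3 fibroblast genes were dropped for an excluded gene, against 21.8% to 43.6% in the others. In primary tumor replicate 6, 2317 of 2383 barcodes held at least 3 fibroblast genes, so this criterion selected little there. The melanoma limit alone dropped 1096 of them, against 6 and 20 in primary tumor replicates 4 and 5 and 0 in every lung library. A limit of 0.1% would leave 170 fibroblasts in primary tumor replicate 6. Its 393 cells with 6 fibroblast genes had a median of 5876 UMIs, and those with 3, 4 or 5 had 1089, 1121 and 1397. Barcodes shared between any 2 of these libraries came to at most 48, or 0.799% of the smaller library. Replicate 4 of either group was sequenced in run 2 and replicates 5 and 6 in run 3, according to the library names. Unchallenged lung replicate 5 was the only library with transcripts of the Y-linked gene *Ddx3y* and had 1.59 CPM of *Xist*, the RNA of the inactive X chromosome, against 1334 to 2271 CPM in the other 5 libraries. The study's methods name mice of both sexes, and no label gives the sex of a library. By these genes the 3 primary tumor libraries and 2 of the 3 lung libraries had the female pattern, so the sexes were not balanced between the tissues.

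The fibroblast label was checked against 12 further fibroblast markers that the rule did not use. In 11 of them, all but *Sparc*, the fibroblasts of every library of the tissue with the higher level held at least as much as the other cells of that library. Between the tissues 8 of the 12 did not pass the test, among them *Bgn*, the proteoglycan biglycan (1349.8, 1297 and 980.1 counts per 1000000 UMIs, CPM, in primary tumor against 1248, 1668 and 1436 CPM in unchallenged lung) and the lipoprotein receptor gene *Lrp1* (667, 1023 and 951 against 622, 802 and 434 CPM). *Sparc*, *Serpinf1*, *Pcolce*, *Fstl1*, *Col6a1* and *Loxl1* are the other 6, with an edgeR adjusted p of 0.0556 or more. *Pdgfra*, the receptor most used to mark lung fibroblasts, had 99.4, 187 and 194 CPM in primary tumor and 1480.2, 702 and 557 CPM in unchallenged lung. Every lung library stood above every tumor library (log2 fold change -2.43 ± 0.44 SE, edgeR adjusted p = 0.00517). Its partner *Pdgfrb* had the reverse order, with 468, 284 and 193 CPM against 85.4, 89.2 and 80.4 CPM (log2 fold change 1.95 ± 0.37 SE, edgeR adjusted p = 0.00708). *Thy1*, which encodes the surface glycoprotein CD90, had 308, 267 and 249.6 CPM in tumor and 12.2, 6.37 and 15.1 CPM in lung, without overlap (log2 fold change 4.74 ± 0.37 SE, edgeR adjusted p = 0.00015). The pericyte gene *Rgs5* had the order of *Pdgfrb*, with 2436, 400.1 and 177 CPM in tumor and 8.13, 4.78 and 2.51 CPM in lung, and cells with a UMI of *Rgs5*, *Myh11* or *Actg2* made up 13.3% to 32.9% of tumor and 3.96% to 11.1% of lung fibroblasts. Without those cells *Pdgfrb* was still called, at a log2 fold change of 1.14 (edgeR adjusted p = 0.0130).

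The genes of the rule chose the cells and are described without a test. *Col1a1* had 4730.2, 7647 and 7289 CPM in primary tumor and 760.4, 1709.8 and 1145 CPM in unchallenged lung, and *Col3a1* had 5333, 11596 and 6486 CPM in tumor and 1704, 2718 and 1564 CPM in lung. *Mgp*, matrix Gla protein, had 7579, 2507 and 3236 CPM in tumor and 9096, 13648 and 8716 CPM in lung, and *Dcn*, decorin, had 2489.8, 2772 and 1862 CPM in tumor and 1496, 13890.3 and 5316 CPM in lung. The sum of *Pmel*, *Dct*, *Mlana* and *Tyrp1* was 198, 688 and 1469 CPM in primary tumor and 0, 0 and 15.1 CPM in unchallenged lung, so melanoma RNA remained in tumor fibroblasts under the limit of 0.5%. Cells with UMIs of just 2 of the 6 fibroblast genes, which the rule left out, numbered 56, 9 and 7 in primary tumor and 4, 4 and 97 in unchallenged lung, and cells with exactly 3 numbered 17, 13 and 41 against 7, 5 and 68.

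Across all genes, 8229 passed the filter on low counts, and 1350 of them (16.4%) passed the test at an adjusted p below 0.05 in edgeR's quasi-likelihood fit. Of these, 587 were higher in primary tumor (7.13% of genes tested) and 763 in unchallenged lung (9.27%), with 4 genes of the rule among them. The first principal component took 61.4% of the variance and separated the tissues, with primary tumor libraries between -57.4 and -50.4 and lung libraries between 44.3 and 66.0. The median log2 fold change over all genes tested was 0.02. Called or not, 1237 of the 8229 genes had no overlap between libraries with primary tumor higher, and 1566 with unchallenged lung higher. A lack of overlap alone was thus common. Without primary tumor replicate 6 the count was 654 genes, and without unchallenged lung replicate 5 it was 820.

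**Figure D1:**
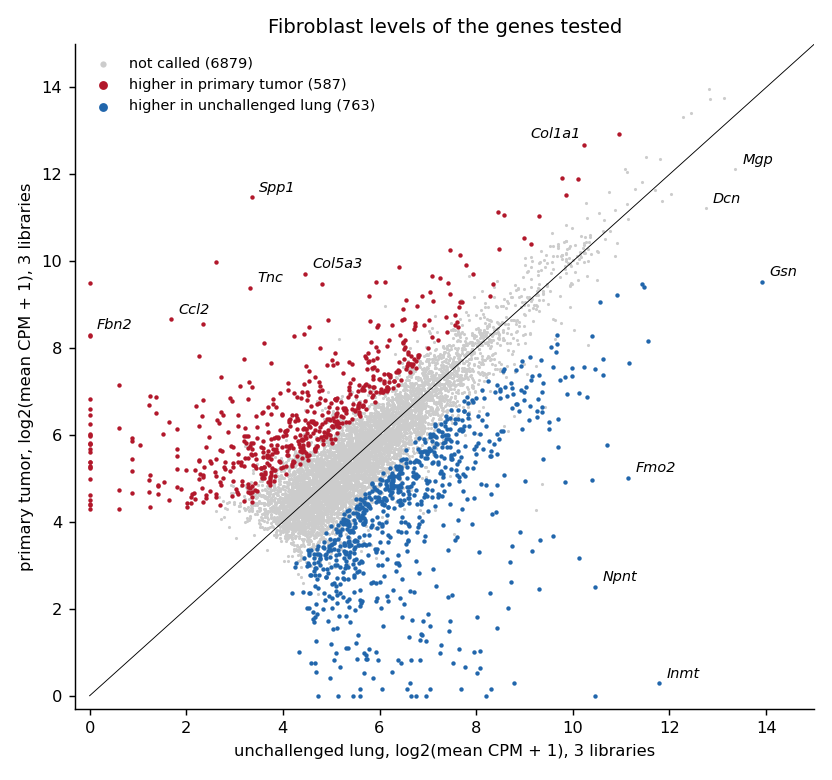
Mean level of each of the 8229 genes tested in fibroblasts of unchallenged lung (horizontal axis, log2 of mean CPM + 1, 3 libraries) and of primary tumor (vertical axis, same scale), where each point is a gene and the line marks equal levels. Red points are the 587 genes called higher in primary tumor and blue points the 763 called higher in unchallenged lung, with *Fbn2* on the left edge at no UMI in lung and *Inmt* near the lower edge.

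The 10 genes named for the largest difference towards primary tumor had no UMI in any of the 3 unchallenged lung libraries, so they passed the filter on low counts through tumor alone and could differ in that direction only. They are *Fbn2*, *Thbs4*, *Meox1*, *Hoxc6*, *Col11a1*, *Cxcl5*, *F2rl1*, *Etv4*, *Add2* and *Hoxc8*, which the rule for naming required to be at least as high in the fibroblasts of every tumor library as in its other cells. *Fbn2*, which encodes the microfibril protein fibrillin-2 and is typical of developing tissue, had 293, 272 and 384 CPM in primary tumor, 1651 UMIs in all. Against the limit of 3 counts that 0 UMIs over the lung libraries allow, it was at least 134-fold higher. *Thbs4*, thrombospondin 4 (ENSMUSG00000021702, chr13:92751590-92794818, minus strand), had 335, 275 and 319 CPM and was at least 131-fold higher. The 3 tumor libraries lay close together for both genes.

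*Meox1*, a homeobox factor of the paraxial mesoderm, had 121, 99.7 and 116 CPM, at least 47.7-fold above unchallenged lung, and *Etv4*, an ETS factor downstream of receptor kinase signalling, had 42.7, 50.5 and 57.4 CPM, at least 21.3-fold above. *F2rl1*, which encodes the protease-activated receptor PAR2, had 37.8, 94.0 and 30.7 CPM, so replicate 5 stood above the other tumor libraries, and *Add2*, which encodes the membrane skeleton protein beta-adducin, had 28.8, 30.9 and 63.0 CPM, with replicate 6 highest. *Add2* was at least 17.4-fold higher in tumor. All of these 10 genes were called in the main fit and in every alternative setting in which they were tested. Since the filter set their direction and they were chosen for size, these calls give no support of their own. Their levels are a description.

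The 10 genes named for the largest difference towards unchallenged lung were *Inmt*, *Tcf21*, *C7*, *Adra1a*, *Slc38a5*, *Lrat*, *Cacna1d*, *Ces1d*, *Gsta3* and *Tbx4*, with 0 to 2 UMIs in all primary tumor fibroblasts, so they passed the filter through lung alone. *Inmt*, an indolethylamine N-methyltransferase (ENSMUSG00000003477, chr6:55170626-55175043, minus strand), had 3574, 3603 and 3440.1 CPM in unchallenged lung, and its 2 UMIs in tumor lay in replicate 6. The ratio of pooled UMIs was 8419, with an exact 95% interval of 2329 to 69538. This interval and the others given for ratios and shares cover counting error only. The 3 lung libraries differed little.

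*Tcf21*, a basic helix-loop-helix factor of lung mesenchyme, had 671, 124 and 90.4 CPM in unchallenged lung and no UMI in tumor, at least 467-fold higher in lung. Replicate 4 stood above the other 2 lung libraries, and the limit was 169.8-fold without it and 169-fold without primary tumor replicate 6. *Lrat*, which esterifies retinol for storage, had 134, 47.8 and 118 CPM and was at least 158-fold higher, and the amino acid carrier gene *Slc38a5* had 146, 98.7 and 77.8 CPM and was at least 170.4-fold higher. *Adra1a*, the alpha-1A adrenergic receptor, had 244, 65.3 and 62.8 CPM and was at least 196-fold higher. *C7*, the complement component, had 362, 529 and 60.3 CPM, lowest in replicate 6, and *Gsta3*, a glutathione S-transferase, had 399, 118 and 133 CPM, highest in replicate 4. These calls also held in every alternative setting in which the gene was tested, but the filter had set their direction, so this gives no support of its own.

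**Figure D2:**
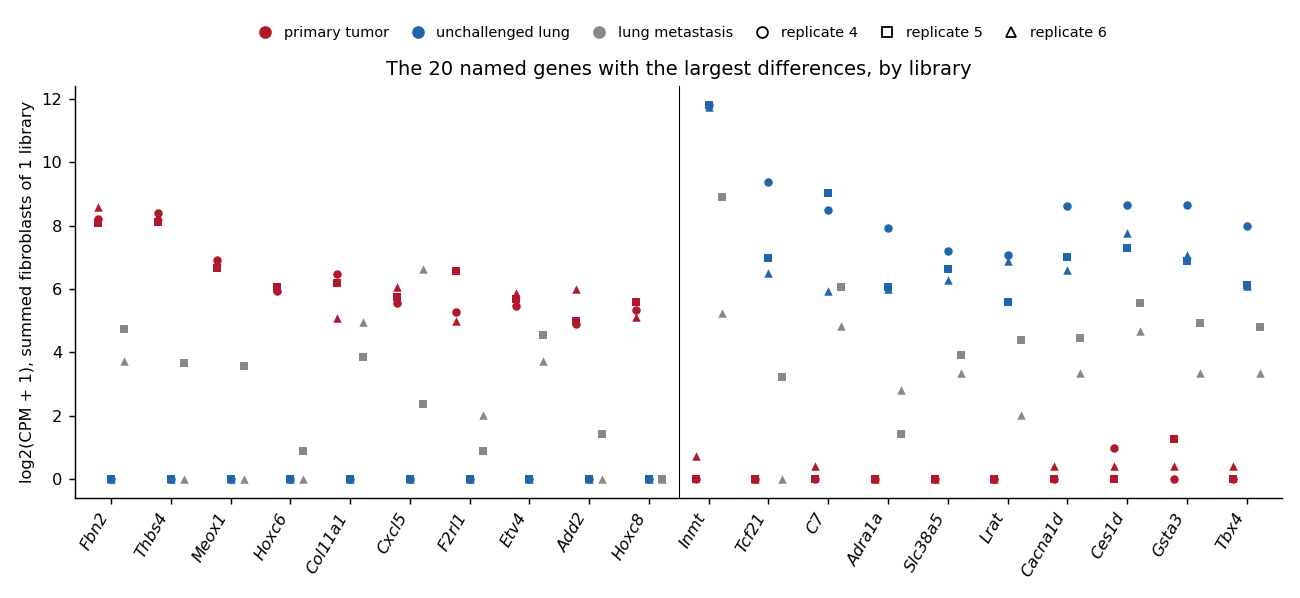
Level of the 20 named genes in the summed fibroblasts of each library (vertical axis, log2 of CPM + 1), with primary tumor in red, unchallenged lung in blue and lung metastasis in grey and a marker shape for each replicate number. The first 10 genes have all blue points at 0, the last 10 have red points between 0 and 1.40 CPM, and *Inmt* stays between 3440.1 and 3603 CPM in the 3 lung libraries.

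Collagen genes were higher in tumor fibroblasts for most members. Of 19 collagen genes tested besides the 3 of the rule, 13 were higher in primary tumor (68.4%, against 7.13% of all genes tested), 2 were higher in unchallenged lung (10.5%, near the 9.27% of all genes tested) and 4 did not pass, with a median log2 fold change of 2.53. *Col5a3*, a chain of fibrillar collagen V, had 789, 911 and 811 CPM in primary tumor and 20.3, 22.3 and 20.1 CPM in unchallenged lung. The libraries of a tissue lay within a narrow range (log2 fold change 5.36 ± 0.35 SE, edgeR adjusted p = 8.23e-05). *Col8a1*, a short-chain collagen of vessel walls and wounds, had 406, 352 and 376 CPM in tumor and 8.13, 1.59 and 2.51 CPM in lung (log2 fold change 6.86 ± 0.46 SE, edgeR adjusted p = 8.23e-05). *Col11a1*, a fibrillar chain known from cartilage and from CAFs, had 87.5, 71.6 and 33.3 CPM in primary tumor, lowest in replicate 6, and was at least 27.2-fold higher. Of the 13, *Col11a1* had no UMI and *Col28a1* 3 UMIs in lung. They passed the filter on low counts through tumor alone, so it set their direction.

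*Col12a1* (4.32 ± 0.60 SE on the log2 scale), *Col15a1* (3.35 ± 0.69 SE) and *Col5a1* (2.12 ± 0.36 SE) were also higher in tumor. In 10 of the 13 the fibroblasts of every tumor library held at least as much as its other cells, as in 320 of all 587 genes called higher in tumor. *Col13a1*, a transmembrane collagen of alveolar fibroblasts, went the other way, with 0, 0 and 3.30 CPM in tumor and 427, 89.2 and 82.9 CPM in lung (log2 fold change -6.52 ± 0.91 SE, edgeR adjusted p = 0.0016). With any single library left out, the counts stayed at 13 and 2. All 26 listed collagen genes outside the rule summed to 12697, 11750.3 and 10102 CPM in tumor fibroblasts and 3245, 3494 and 2255 CPM in lung fibroblasts. The 13 genes, which were chosen for being higher in tumor, summed to 10713, 9489 and 8705 CPM in tumor fibroblasts and 1724, 1579 and 1193 CPM in lung fibroblasts. In cells with a *Pecam1* UMI of the same libraries they summed to 2991, 6177 and 8164 CPM in primary tumor and 623, 542 and 249 CPM in unchallenged lung, again without overlap. These cells are not a pure endothelial background, since they include cells with 3 fibroblast genes that the rule dropped for *Pecam1*. Of all cells with 3 fibroblast genes, 6.51, 30.9 and 20.8% held a *Pecam1* UMI in primary tumor and 10.3, 13.5 and 20.8% in unchallenged lung. Whether the difference in the *Pecam1* cells is part of that in fibroblasts was not tested.

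Enzymes of collagen maturation were higher in primary tumor for 10 of 19 members (52.6%, against 7.13% of all genes tested). Lower in tumor were 2 (10.5%, near the 9.27% of all genes tested), and the median log2 fold change was 1.26. *P4ha2*, a subunit of prolyl 4-hydroxylase, had 76.5, 143 and 160.1 CPM in primary tumor and 20.3, 17.5 and 22.6 CPM in unchallenged lung (log2 fold change 2.71 ± 0.37 SE, edgeR adjusted p = 0.00146), and the cross-linking enzyme gene *Loxl2* had 209.7, 373 and 200.4 CPM in tumor and 65.1, 70.0 and 45.2 CPM in lung (log2 fold change 2.16 ± 0.35 SE, edgeR adjusted p = 0.0033). All tumor libraries exceeded all lung libraries for both. *Pcolce2*, an enhancer of procollagen processing, had 2.98, 78.6 and 8.91 CPM in tumor and 1606, 1573 and 839 CPM in lung (log2 fold change -5.51 ± 1.00 SE, edgeR adjusted p = 0.00546), while its relative *Pcolce* had 527, 373 and 230.1 CPM in tumor and 333, 543 and 198 CPM in lung and did not pass. With any single library left out, 7 to 11 of these genes were higher in tumor.

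Among 33 matricellular and adhesive glycoproteins, 11 were higher in primary tumor (33.3%) and 6 in unchallenged lung (18.2%), against 7.13% and 9.27% of all genes tested. *Thbs4*, among the 11, had no UMI in lung, so the filter on low counts set its direction. *Tnc*, the wound and tumor glycoprotein tenascin-C (chr4:63959785-64047015, minus strand), had 389.6, 764 and 861 CPM in primary tumor and 24.4, 0 and 2.51 CPM in unchallenged lung (log2 fold change 6.78 ± 0.86 SE, edgeR adjusted p = 0.000942). Tumor replicate 4 was the lowest of the tumor libraries and still above every lung library. *Postn*, periostin, had 684, 919 and 529 CPM in tumor and 56.9, 19.1 and 5.02 CPM in lung (log2 fold change 4.93 ± 0.64 SE, edgeR adjusted p = 0.00104). *Cthrc1*, a secreted marker of fibrotic fibroblasts, had 128, 354 and 190.5 CPM in tumor and 0, 6.37 and 5.02 CPM in lung, and in at least 1 tumor library the other cells held more of it than the fibroblasts (log2 fold change 5.61 ± 0.62 SE, edgeR adjusted p = 0.000601).

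*Spp1*, osteopontin, which is also on the macrophage marker list, had 3532, 1263 and 3725 CPM in primary tumor and 0, 0 and 27.6 CPM in unchallenged lung (log2 fold change 8.32 ± 1.11 SE, edgeR adjusted p = 0.00129). Its 11 lung UMIs all lay in replicate 6, so its size rests on that library, and without lung replicate 5 the log2 fold change was 7.58. In the other direction, *Npnt*, nephronectin, a basement membrane ligand of alveolar integrin, had 1.99, 4.21 and 7.92 CPM in tumor and 2696, 721 and 821 CPM in lung (log2 fold change -7.94 ± 0.74 SE, edgeR adjusted p = 0.000281). The small proteoglycan gene *Ogn* had 13.9, 122 and 25.4 CPM in tumor and 2001, 2003 and 1017 CPM in lung (log2 fold change -4.94 ± 0.80 SE, edgeR adjusted p = 0.00312). For both genes the lowest lung library was several times above the highest tumor library, tumor replicate 5 for *Ogn* and replicate 6 for *Npnt*.

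Elastic fibre genes split between the tissues, with 5 of 17 higher in primary tumor and 6 in unchallenged lung, 29.4% and 35.3% against 7.13% and 9.27% of all genes tested. *Fbn2*, among the 5, had no UMI in lung, so the filter on low counts set its direction. Besides *Fbn2*, *Fbn1* (1070.5, 2291 and 1118 against 399, 771 and 347 CPM, log2 fold change 1.60 ± 0.47 SE, edgeR adjusted p = 0.0455) and the microfibril gene *Mfap2* (1.24 ± 0.29 SE on the log2 scale) were higher in tumor. *Mfap4* (38.8, 173 and 32.4 against 1269, 753 and 449 CPM, log2 fold change -3.29 ± 0.68 SE, edgeR adjusted p = 0.0101), *Fbln1* and *Fbln5* were higher in lung, and elastin itself, *Eln*, did not pass. The counts rested on single libraries. Without primary tumor replicate 4 or unchallenged lung replicate 6 they were 3 in tumor, and without primary tumor replicate 6 they were 2 in tumor and 1 in lung. *Fbn1* lost its call without any 1 of 5 libraries, all but unchallenged lung replicate 5 (log2 fold change 1.16 to 2.12), *Mfap2* without unchallenged lung replicate 6, and *Mfap4* and *Fbln1* without primary tumor replicate 6. *Fbln5* lost its call without primary tumor replicate 5 or 6 or unchallenged lung replicate 4 or 5 (log2 fold change -1.82 to -1.25).

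Of 26 matrix proteases and inhibitors 9 were higher in primary tumor (34.6%) and 2 in unchallenged lung (7.69%), against 7.13% and 9.27% of all genes tested. Among the 9, *Adam12* and *Adamts4* had 0 and 2 UMIs in lung. They passed the filter on low counts through tumor alone, so it set their direction. *Fap*, fibroblast activation protein, a serine protease used as a CAF marker, had 97.4, 91.2 and 80.5 CPM in tumor and 12.2, 12.7 and 7.53 CPM in lung (log2 fold change 3.07 ± 0.34 SE, edgeR adjusted p = 0.000601). The metalloprotease inhibitor gene *Timp1* had 757, 525 and 933 CPM in tumor and 24.4, 132 and 47.7 CPM in lung (log2 fold change 3.39 ± 0.57 SE, edgeR adjusted p = 0.0038), whereas its relatives *Timp2* (322, 397 and 205 CPM in tumor and 549, 2208 and 1283 CPM in lung, log2 fold change -2.10 ± 0.54 SE, edgeR adjusted p = 0.0262) and *Timp3* (-1.94 ± 0.49 SE on the log2 scale) were higher in lung. The 3 inhibitor genes thus had opposite directions. The calls of *Timp2* and *Timp3* were lost without any 1 of 5 libraries, all but unchallenged lung replicate 4 (log2 fold change -2.47 to -1.48 and -2.28 to -1.54).

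**Figure D3:**
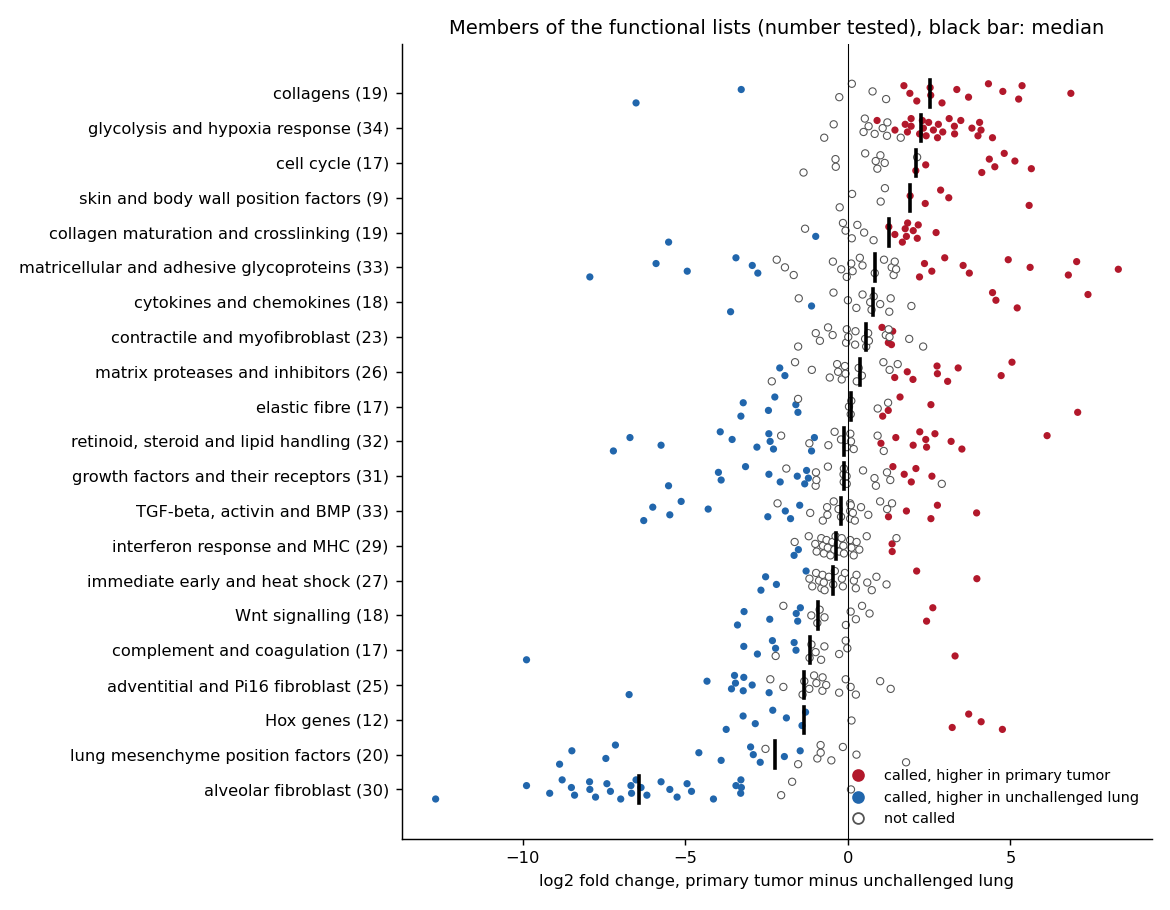
Log2 fold change, primary tumor minus unchallenged lung (horizontal axis), of each member of the 21 functional lists, with the number of members tested after the list name and the list median as a black bar. Filled points passed the test, open points did not, and a gene without a UMI in 1 tissue is drawn at its bound; the collagen list has its median at 2.53 and the alveolar fibroblast list at -6.44.

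Genes of alveolar fibroblasts were higher in unchallenged lung for nearly the whole list. Of 30 tested, 27 were higher in lung (90.0%, against 9.27% of all genes tested) and none in primary tumor, and *Plin2*, *Lpl* and *Enpep* did not pass, with a median log2 fold change of -6.44. Of the 27, *Inmt*, *C7*, *Cacna1d*, *Gsta3*, *Slc38a5* and *Ces1d* had 0 to 2 UMIs each in tumor. They passed the filter on low counts through lung alone, so it set their direction. With any single library left out, 24 to 28 genes of the list were higher in lung. The summed level of the 27 genes was 469, 741 and 460.5 CPM in primary tumor and 30209, 13199 and 11319.8 CPM in unchallenged lung. Over all 30 genes it was 689, 880.1 and 652 CPM and 30494, 13534 and 12048 CPM. In cells with a *Pecam1* UMI of the same libraries the sum of the 27 was 649, 1019 and 834 and 1150.0, 1213 and 1289 CPM.

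*Fmo2*, a flavin monooxygenase of lung, had 12.9, 74.4 and 6.60 CPM in primary tumor and 3408, 1858 and 1499 CPM in unchallenged lung (log2 fold change -6.18 ± 0.92 SE, edgeR adjusted p = 0.00205). Tumor replicate 5 held more than the other tumor libraries and less than any lung library. The retinaldehyde dehydrogenase gene *Aldh1a1* (1.99, 8.42 and 2.97 against 1013, 416 and 462 CPM, log2 fold change -7.21 ± 0.60 SE, edgeR adjusted p = 0.000171) and the glucocorticoid-activating enzyme gene *Hsd11b1* (16.9, 7.02 and 8.91 against 1419, 283 and 218 CPM, log2 fold change -5.75 ± 0.79 SE, edgeR adjusted p = 0.00148) followed the same order. *Hhip*, the hedgehog-interacting protein of peribronchial fibroblasts, had 4.97, 2.81 and 1.32 CPM in tumor and 679, 320.0 and 218 CPM in lung (log2 fold change -7.15 ± 0.63 SE, edgeR adjusted p = 0.000216).

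Of 25 genes of adventitial and *Pi16* fibroblasts, 9 were higher in unchallenged lung (36.0%, against 9.27% of all genes tested) and none in primary tumor. *Gsn*, the actin-severing protein gelsolin, had 804, 905 and 509 CPM in primary tumor and 10934, 23310.2 and 11960.2 CPM in unchallenged lung (log2 fold change -4.33 ± 0.62 SE, edgeR adjusted p = 0.00179). *Pi16*, the peptidase inhibitor that names this kind of fibroblast, had 90.4, 362 and 100.4 CPM in tumor and 675, 1748 and 593 CPM in lung, with tumor replicate 5 nearest to the lung libraries (log2 fold change -2.42 ± 0.65 SE, edgeR adjusted p = 0.0327). *Clec3b* had 48.7, 473 and 81.2 CPM in tumor and 996, 4456 and 1371 CPM in lung (log2 fold change -3.49 ± 0.94 SE, edgeR adjusted p = 0.0321), and *Ly6a*, which encodes the stem cell antigen SCA-1, had 168, 577 and 143 CPM in tumor and 301, 1433 and 628 CPM in lung, overlapping, and did not pass. The count of this list was 5 without primary tumor replicate 4, 3 without primary tumor replicate 6 and 4 without unchallenged lung replicate 5. *Pi16* and *Clec3b* lost their calls without any of these, and *Clec3b* also without unchallenged lung replicate 6 (log2 fold change -3.36 to -1.68 and -5.09 to -2.47).

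Transcription factors that mark the position of mesenchyme differed between the tissues. Of 20 factors and signals of lung mesenchyme tested, 11 were higher in unchallenged lung and none in primary tumor, against 9.27% and 7.13% of all genes tested. Among the 11, *Tcf21*, *Tbx4* and *Tbx5* had 0, 1 and 2 UMIs in tumor. They passed the filter on low counts through lung alone, so it set their direction. *Tbx4*, a T-box factor of the lung bud, had 256, 68.5 and 67.8 CPM in lung and 1 UMI in tumor, a ratio of 496 with a 95% counting interval of 87.6 to 19749, and *Tbx5* had 134, 78.0 and 82.9 CPM in lung and 2 UMIs in tumor, both in replicate 6, a ratio of 215 with an interval of 58.1 to 1793. *Fgf10*, the growth factor that drives lung branching, had 3.98, 4.21 and 2.31 CPM in tumor and 48.8, 57.3 and 40.2 CPM in lung (log2 fold change -3.90 ± 0.41 SE, edgeR adjusted p = 0.000476). Of 25 listed factors of skin and body wall 9 passed the filter on low counts. Among these, 5 were higher in tumor (55.6%, against 7.13% of all genes tested) and none in lung (against 9.27%). *Meox1* and *Ebf3*, 2 of the 5, had no UMI in lung and passed the filter through tumor alone, so it set their direction. *Twist1*, a factor of early mesoderm, had 82.5, 59.0 and 44.2 CPM in tumor and 8.13, 7.96 and 10.0 CPM in lung (log2 fold change 2.85 ± 0.42 SE, edgeR adjusted p = 0.00195). Of the skin and body wall factors 3 were higher in tumor without primary tumor replicate 5 or 6, and 8 without unchallenged lung replicate 5.

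Of 39 Hox genes listed, 27 were too low to be tested. Among the 12 tested, *Hoxc6*, *Hoxc8*, *Hoxc9* and *Hoxd8* had UMIs in primary tumor and none in unchallenged lung. They passed the filter on low counts through tumor alone, so their direction was set by the filter and their levels are a description. *Hoxc6* had 60.6, 66.0 and 64.0 CPM, *Hoxc8* had 39.8, 47.7 and 33.7 CPM and *Hoxc9* had 41.7, 28.1 and 23.1 CPM, and they were at least 27.0-fold, 17.1-fold and 13.1-fold higher in tumor. Of the other 8 genes, which had UMIs in both tissues, 7 were higher in lung, *Hoxa3*, *Hoxa4*, *Hoxa5*, *Hoxa7*, *Hoxb3*, *Hoxb4* and *Hoxb5*. These 7 are 58.3% of the 12 Hox genes tested, against 9.27% of all genes tested. *Hoxa5*, which is needed for lung development (chr6:52201754-52204587, minus strand), had 11.9, 4.21 and 6.60 CPM in tumor and 109.8, 115 and 95.4 CPM in lung (log2 fold change -3.74 ± 0.37 SE, edgeR adjusted p = 0.000386). *Hoxb2* did not pass. Without unchallenged lung replicate 5, 4 Hox genes were higher in lung, and *Hoxa3* lost its call without it. *Hoxa7* and *Hoxb3* lost theirs without 4 and 3 single libraries, primary tumor replicates 5 and 6 and unchallenged lung replicate 5 for both and unchallenged lung replicate 4 for *Hoxa7* (log2 fold change -1.48 to -1.05 and -1.62 to -1.16).

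Glycolysis and hypoxia-response genes were higher in primary tumor for 24 of 34 members tested (70.6%, against 7.13% of all genes tested) and lower for none, with a median of 2.25. In well-known biology, low oxygen stabilises hypoxia-inducible factors, which raise glucose uptake, glycolytic enzymes and their own regulators. *Slc2a1*, the glucose carrier GLUT1 (ENSMUSG00000028645, chr4:119108711-119137983, plus strand), had 85.5, 95.5 and 238 CPM in tumor and 12.2, 3.18 and 7.53 CPM in lung (log2 fold change 4.45 ± 0.60 SE, edgeR adjusted p = 0.00131). Tumor replicate 6 was highest, and no tumor library overlapped a lung library. *Ddit4*, an inhibitor of mTORC1 made under stress, had 76.5, 68.8 and 117 CPM in tumor and 4.07, 3.18 and 10.0 CPM in lung (log2 fold change 4.00 ± 0.46 SE, edgeR adjusted p = 0.000684). *Hk2*, hexokinase 2, had 68.6, 152 and 226 CPM in tumor and 0, 1.59 and 25.1 CPM in lung (log2 fold change 4.09 ± 0.81 SE, edgeR adjusted p = 0.00804). Of its 11 lung UMIs 10 lay in replicate 6, without which the log2 fold change was 6.94, and without lung replicate 5 it was 3.44.

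*Egln3*, an oxygen-sensing prolyl hydroxylase, had 15.9, 33.7 and 32.4 CPM in tumor and 2 UMIs in lung, both in replicate 6, a ratio of pooled UMIs of 18.5 with a 95% counting interval of 5.02 to 154. Its call was lost without unchallenged lung replicate 5. *Egln3* passed the filter on low counts through tumor alone, so the filter set its direction. The glycolytic enzyme genes *Pgk1* (314, 310.2 and 477 against 56.9, 46.2 and 82.9 CPM), *Ldha* (477, 394 and 556 against 81.3, 76.4 and 108 CPM) and *Eno1* (228, 364 and 581 against 65.1, 35.0 and 65.3 CPM) did not overlap between tissues either. *Vegfa*, a target of the same factors, had 215, 286 and 635 CPM in tumor and 329, 97.1 and 108 CPM in lung, overlapping, and did not pass (log2 fold change 1.20 ± 0.53 SE, edgeR adjusted p = 0.161). With any single library left out, 19 to 25 genes of the list were higher in tumor.

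The summed level of the list was also higher in other cells of the tumor libraries. Its 24 called members summed to 5180.4, 5531 and 8058 CPM in tumor fibroblasts and 1326, 1207 and 1474 CPM in lung fibroblasts. All 38 listed genes summed to 5977, 6709.7 and 9912 CPM and 2346, 2014 and 2192 CPM. In cells with a *Pecam1* UMI of the same libraries the 24 summed to 6283, 3746 and 5619 CPM and 2167, 1765 and 1971 CPM, again without overlap between tissues. In 9 of the 24 genes the fibroblasts of every tumor library were at least as high as the other cells of that library. Of all 587 genes called higher in tumor, this held for 320.

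Because these genes were higher together, the 250 bases before the RefSeq start site of 4 of them are shown, the 4 with the largest difference among those that hold the letters ACGTG, the core of the hypoxia response element. Capitals mark ACGTG or, on the other strand, CACGT. The letters are also part of the E-box CACGTG. The sequences are from RefSeq on GRCm38.p6 and run 5′ to 3′ in the direction of the gene. The RefSeq start can differ from that of the gene spans given above, which are from GENCODE, and for *Slc2a1* and *Ddit4* the stretch runs into the GENCODE span.
*Slc2a1* (chr4:119108495-119108744, plus strand): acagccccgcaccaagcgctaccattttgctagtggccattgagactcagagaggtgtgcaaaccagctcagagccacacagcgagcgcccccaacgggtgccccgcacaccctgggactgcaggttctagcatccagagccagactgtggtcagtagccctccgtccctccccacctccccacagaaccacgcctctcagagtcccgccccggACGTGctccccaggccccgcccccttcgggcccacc
*Hk2* (chr6:82774455-82774704, minus strand): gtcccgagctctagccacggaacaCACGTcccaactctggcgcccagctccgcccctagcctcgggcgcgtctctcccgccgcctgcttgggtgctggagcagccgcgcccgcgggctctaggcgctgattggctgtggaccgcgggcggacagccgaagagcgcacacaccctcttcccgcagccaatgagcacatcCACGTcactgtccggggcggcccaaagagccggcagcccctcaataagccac
*Egln3* (chr12:54203875-54204124, minus strand): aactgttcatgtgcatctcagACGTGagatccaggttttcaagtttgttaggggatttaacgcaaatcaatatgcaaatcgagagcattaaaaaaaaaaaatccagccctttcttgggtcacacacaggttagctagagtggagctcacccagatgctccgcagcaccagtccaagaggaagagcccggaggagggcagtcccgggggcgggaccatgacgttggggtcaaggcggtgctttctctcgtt
*Ddit4* (chr10:59951771-59952020, minus strand): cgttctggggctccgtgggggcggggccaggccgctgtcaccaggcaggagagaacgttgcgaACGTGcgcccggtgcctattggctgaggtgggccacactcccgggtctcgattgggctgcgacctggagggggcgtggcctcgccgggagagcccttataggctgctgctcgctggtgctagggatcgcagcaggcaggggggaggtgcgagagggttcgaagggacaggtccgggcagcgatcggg
*Hk2* holds 2 such runs and the others 1 each. Of the 24 genes, 23 matched a promoter, all but *Ero1l*, and 12 of these (52.2%) held ACGTG on either strand, against 1495 of 6542 tested genes with a promoter (22.9%) and 4477 of 27025 promoters in all (16.6%). With GCGTG allowed as well, the shares were 73.9%, 59.8% and 38.6%. A match of letters is a description and does not show that a factor binds there. The list was chosen for known roles in glycolysis and the hypoxia response, so such letters may be frequent in it whatever these libraries show. The uncalled members of the list were not counted for comparison.

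Of 39 cytokine genes listed, 21 did not pass the filter on low counts. Among the 18 tested, 4 were higher in primary tumor, all of them chemokines, and 2 in unchallenged lung. These are 22.2% and 11.1%, against 7.13% and 9.27% of all genes tested, so the share in lung lies near that of all genes. Of the 4, *Ccl7*, *Cxcl5* and *Ccl2* had 0, 0 and 3 lung UMIs. They passed the filter through tumor alone, so it set their direction. *Ccl2*, which attracts monocytes, had 349.9, 307 and 553 CPM in tumor and 3 UMIs in lung, 2 of them in replicate 6, a ratio of pooled UMIs of 201 with a 95% counting interval of 68.6 to 974. *Ccl7*, its neighbor, had 57.6, 118 and 85.8 CPM in tumor and no UMI in lung, at least 37.0-fold higher. *Cxcl5*, a neutrophil attractant, had 46.7, 53.3 and 66.0 CPM in tumor and was at least 23.5-fold higher. *Cxcl1* had 49.7, 247 and 184 CPM in tumor and 0, 14.3 and 2.51 CPM in lung, lowest in tumor replicate 4 (log2 fold change 4.45 ± 0.80 SE, edgeR adjusted p = 0.00517).

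For *Ccl2* and *Ccl7*, the other cells of at least 1 tumor library held more than the fibroblasts did. *Tnfsf13b*, the B cell survival factor BAFF, was higher in lung with 7.95, 9.83 and 3.96 CPM in tumor and 48.8, 78.0 and 113 CPM in lung (log2 fold change -3.61 ± 0.46 SE, edgeR adjusted p = 0.000949). *Ccl11* had 349.9, 310.2 and 594 CPM in tumor and 40.7, 339 and 116 CPM in lung, overlapping, and did not pass. The acute-phase gene *Saa3* was too low to be tested.

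Genes of the TGF-beta family had no common direction, with 5 of 33 genes higher in primary tumor (15.2%) and 9 in unchallenged lung (27.3%), against 7.13% and 9.27% of all genes tested. *Inhba*, the activin A subunit, had 284, 264 and 526 CPM in tumor and 16.3, 35.0 and 15.1 CPM in lung (log2 fold change 3.96 ± 0.45 SE, edgeR adjusted p = 0.000672). The genes named for bone morphogenetic proteins were divided. *Bmp1*, which encodes a procollagen-cleaving protease, was higher in tumor (170.0, 291 and 191 CPM in tumor and 28.5, 100.3 and 52.7 CPM in lung, log2 fold change 1.80 ± 0.43 SE, edgeR adjusted p = 0.0199) and lost its call without primary tumor replicate 5 or 6 or unchallenged lung replicate 6 (log2 fold change 1.51 to 2.47), and *Bmp2* did not pass (0.40 ± 0.67 SE on the log2 scale). *Bmp4* had 0, 2.81 and 2.64 CPM in tumor and 207, 158 and 153 CPM in lung (log2 fold change -6.28 ± 0.50 SE, edgeR adjusted p = 0.000163), *Bmp5* had 1.99, 4.21 and 0.660 CPM in tumor and 191, 100.3 and 65.3 CPM in lung (log2 fold change -6.00 ± 0.62 SE, edgeR adjusted p = 0.000474). Both were higher in lung, as were *Bmp3* and *Gdf10*. *Tgfb1*, *Tgfb2* and *Tgfb3* did not pass. Higher in tumor were 3 genes without primary tumor replicate 5 or unchallenged lung replicate 5 and 2 without primary tumor replicate 6.

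Among Wnt genes 2 of 18 were higher in tumor (11.1%, near the 7.13% of all genes tested) and 6 in lung (33.3%, against 9.27%). *Wnt5a* had 18.9, 7.02 and 16.5 CPM in tumor and 73.2, 189 and 211 CPM in lung (log2 fold change -3.40 ± 0.48 SE, edgeR adjusted p = 0.00164) and *Axin2*, a target of the pathway, had 3.98, 11.2 and 5.28 CPM in tumor and 40.7, 31.8 and 32.6 CPM in lung (log2 fold change -2.40 ± 0.42 SE, edgeR adjusted p = 0.0043). All 3 lung libraries exceeded all tumor libraries for both, while the inhibitor *Sfrp2* was higher in tumor (21.9, 128 and 112 against 8.13, 6.37 and 30.1 CPM, log2 fold change 2.61 ± 0.74 SE, edgeR adjusted p = 0.0397). Of 31 growth factors and receptors, 5 were higher in tumor, *Pdgfa*, *Mdk*, *Pdgfrb*, *Igfbp7* and *Egfr* (16.1%), and 10 in lung (32.3%), among them *Fgfr3* (0.994, 1.40 and 2.31 against 155, 76.4 and 57.8 CPM, log2 fold change -5.52 ± 0.51 SE, edgeR adjusted p = 0.000271) and *Vegfd* (8.95, 18.2 and 16.5 against 289, 318 and 116 CPM, log2 fold change -3.98 ± 0.46 SE, edgeR adjusted p = 0.000677). *Sfrp2* lost its call without primary tumor replicate 5 or 6 or unchallenged lung replicate 4 or 5 (log2 fold change 2.15 to 3.66). Without primary tumor replicate 6, 2 growth factor genes were higher in tumor and *Egfr* lost its call. *Mdk* lost its call without that library or unchallenged lung replicate 5 or 6 (log2 fold change 1.52 to 2.42), and *Igfbp7* without any 1 of 5 libraries, all but primary tumor replicate 5 (log2 fold change 1.21 to 1.98).

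Genes that handle retinoids, steroids and lipids were divided, with 10 of 32 higher in primary tumor (31.2%) and 11 in unchallenged lung (34.4%), against 7.13% and 9.27% of all genes tested. *Ptgds*, among the 10, had 1 UMI in lung and passed the filter on low counts through tumor alone, so the filter set its direction. The cholesterol synthesis genes *Sqle* (2.21 ± 0.51 SE on the log2 scale) and *Hmgcs1* (1.47 ± 0.36 SE) were higher in tumor, as was *Apod*, a lipid carrier, with 1978, 309 and 521 CPM against 44.7, 129 and 75.3 CPM (log2 fold change 3.51 ± 0.74 SE, edgeR adjusted p = 0.0107). Tumor replicate 4 was the highest for *Apod*. *Rbp4*, the retinol-binding protein, had 2.98, 0 and 7.59 CPM in tumor and 28.5, 124 and 60.3 CPM in lung (log2 fold change -3.93 ± 0.68 SE, edgeR adjusted p = 0.00445). The transcription regulators *Zbtb16*, *Tsc22d3* and *Klf9* and the glucocorticoid receptor gene *Nr3c1* were higher in lung, whereas *Fkbp5* (0.18 ± 0.27 SE on the log2 scale) and *Per1* (-0.030 ± 0.43 SE), which are known to respond to glucocorticoids as those 3 regulators do, did not pass. Without primary tumor replicate 6 the counts were 6 in tumor and 5 in lung, without primary tumor replicate 5 they were 6 in tumor, and without unchallenged lung replicate 5 they were 7 in lung. *Apod* lost its call without unchallenged lung replicate 6 (log2 fold change 2.32 to 4.06), *Zbtb16* without primary tumor replicate 6, *Tsc22d3* without primary tumor replicate 5 or 6, *Hmgcs1* and *Sqle* without either of these or unchallenged lung replicate 5, and *Nr3c1* without any 1 of 5 libraries, all but unchallenged lung replicate 6 (log2 fold change -1.22 to -0.91).

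Complement and coagulation genes were higher in unchallenged lung for 7 of 17 members and in primary tumor for 1, 41.2% and 5.88% against 9.27% and 7.13% of all genes tested. *Tfpi2*, a protease inhibitor, had 40.8, 51.9 and 62.7 CPM in tumor and 0, 7.96 and 5.02 CPM in lung (log2 fold change 3.30 ± 0.51 SE, edgeR adjusted p = 0.00245). *C7*, among the 7, had 1 UMI in tumor and passed the filter on low counts through lung alone, so the filter set its direction. *C3* and *C4b* did not pass. Higher in lung were 4 genes without primary tumor replicate 4 or 6 and 3 without unchallenged lung replicate 5.

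Of 23 contractile genes tested, 4 were higher in primary tumor (17.4%, against 7.13% of all genes tested), *Tpm4*, *Cald1*, *Pdlim7* and *Actn1*, none was higher in unchallenged lung, and the largest of these changes was 1.38 ± 0.30 SE on the log2 scale. *Acta2*, alpha smooth muscle actin, a common marker of contractile CAFs, had 1667, 517 and 258 CPM in tumor and 281, 334 and 77.8 CPM in lung (log2 fold change 1.89 ± 0.73 SE, edgeR adjusted p = 0.112). Tumor replicate 4 carried most of it and the tissues overlapped. The 15 pericyte and smooth muscle markers summed to 4882, 1244 and 837 CPM in tumor and 1439, 1073 and 462 CPM in lung, and *Rgs5*, a pericyte gene, had 2436, 400.1 and 177 CPM against 8.13, 4.78 and 2.51 CPM in lung (log2 fold change 7.75 ± 1.20 SE, edgeR adjusted p = 0.00249). Without cells that held a UMI of *Rgs5*, *Myh11* or *Actg2*, 4 contractile genes were higher in tumor and 4 in lung. This leaves out 13.3% to 32.9% of tumor fibroblasts and 3.96% to 11.1% of lung fibroblasts, by a choice that uses members of the list itself, so no direction was read from it. With single libraries left out, 0 to 4 were higher in tumor, 1 without primary tumor replicate 4 or 6 or unchallenged lung replicate 5, 2 without primary tumor replicate 5 and 0 without unchallenged lung replicate 6. With the replicate number as a block, 8 were higher in tumor and 1 in lung. *Myl9*, a light chain of smooth muscle myosin, had 247, 135 and 39.6 CPM in tumor and 102, 145 and 32.6 CPM in lung and did not pass.

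Of 39 cell cycle genes listed, 22 did not pass the filter on low counts. Among the 17 tested, 8 were higher in primary tumor (47.1%, against 7.13% of all genes tested) and none in unchallenged lung. *Cenpf*, *Birc5*, *Mki67*, *Cdkn2a* and *Cdkn2b* had 0, 1, 3, 3 and 3 lung UMIs. They passed the filter through tumor alone, so it set their direction. *Mki67*, a proliferation marker, had 68.6, 82.8 and 55.5 CPM in tumor and 3 UMIs in lung, all in replicate 6, a ratio of pooled UMIs of 26.4 with a 95% counting interval of 8.96 to 129. *Cenpf* had 48.7, 43.5 and 70.0 CPM and no UMI in lung, at least 22.9-fold higher. The cycle inhibitor *Cdkn2b*, p15, had 148, 94.0 and 109 CPM in tumor and 3 UMIs in lung, all in replicate 5, a ratio of 48.8 with an interval of 16.6 to 237, and *Cdkn2a* also had 3 UMIs in lung, all in replicate 6, a ratio of 17.8 with an interval of 6.00 to 86.9. *Cdkn2a* and *Cdkn2b* were at least as high in the fibroblasts of every tumor library as in its other cells, and the other 6 were not. The ratios of *Mki67*, *Cdkn2b* and *Cdkn2a* thus each rest on 1 lung library, without which no lung UMI is left. Higher in tumor were 13 genes of the list without unchallenged lung replicate 6, and 1 gene when 45 cells were taken from every library.

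Interferon and antigen presentation genes, 29 tested, were higher in tumor for 2 and in lung for 2, 6.90% in either direction against 7.13% and 9.27% of all genes tested. Immediate early and heat shock genes, 27 tested, gave 2 higher in tumor (7.41%, near the 7.13% of all genes tested), *Egr2* and *Ier3*, and 4 higher in lung (14.8%, against 9.27%). *Egr2* had 3 UMIs in lung and passed the filter on low counts through tumor alone, so the filter set its direction. *Dusp1*, a phosphatase induced within minutes of stress, had 70.6, 143 and 82.2 CPM in tumor and 773, 449 and 758 CPM in lung (log2 fold change -2.67 ± 0.38 SE, edgeR adjusted p = 0.00167), and *Zfp36*, *Btg2* and *Jund* had the same order. These 4 genes are known to respond to tissue dissociation, and they were at least as high in the other cells of 1 or more lung libraries. Each of these small counts changed with single libraries, from 0 to 1 interferon genes higher in tumor and 0 to 6 higher in lung. *Jund* and *Ier3* lost their calls without primary tumor replicate 5 or 6 or unchallenged lung replicate 5, and *Egr2* without either of the last 2. *Hspa1a* and *Hspa1b*, inducible heat shock proteins, did not pass, with 60.6, 30.9 and 176 CPM in tumor against 134, 52.5 and 62.8 CPM in lung for *Hspa1a*.

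Single libraries moved the size of many called differences. Of 159 called genes named in the text or its lists, 89 had a fold change, not on the log2 scale, that moved by over 1.5-fold in either direction when some library was left out. Without unchallenged lung replicate 5 the log2 fold change was 6.68 for *Cxcl1*, 6.24 for *Cthrc1* and 4.14 for *Tfpi2*, each with 1 or 2 lung UMIs left, and 4.62 for *Inhba*, 4.47 for *Col15a1*, 4.41 for *Timp1*, 5.94 for *Tnc* and -3.20 for *Rbp4*. Without unchallenged lung replicate 4 it was 9.29 for *Tnc* and 7.56 for *Col8a1*, again with 1 or 2 lung UMIs left, and 5.80 for *Postn*, -5.40 for *Col13a1*, -4.48 for *Hsd11b1* and -7.09 for *Npnt*. Without unchallenged lung replicate 6 that of *Ddit4* was 4.66, with 3 lung UMIs left.

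The tumor libraries had the same kind of effect. Without primary tumor replicate 6 the log2 fold change was -5.23 for *Rbp4*, with 3 tumor UMIs left, -8.67 for *Npnt*, -6.47 for *Hhip*, -5.59 for *Fmo2*, -5.10 for *Bmp5* and 3.82 for *Slc2a1*, and all 10 tumor UMIs of *Col13a1* lay in that library. Without primary tumor replicate 5 it was -7.82 for *Fmo2*, -7.59 for *Pcolce2*, -6.30 for *Ogn*, -4.45 for *Mfap4* and 3.60 for *Col12a1*, and without primary tumor replicate 4 that of *Rgs5* was 5.94. Each of these genes stayed called without the library named beside it.

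Limits against 0 UMIs fall when the library with most UMIs of the empty tissue is left out. Without unchallenged lung replicate 5 *Fbn2* was at least 67.9-fold higher in tumor, *Thbs4* 66.5-fold, *Meox1* 24.1-fold, *Ccl7* 18.7-fold, *Col11a1* 13.8-fold, *Hoxc6* 13.6-fold, *Cxcl5* 11.9-fold, *Cenpf* 11.6-fold, *Etv4* 10.8-fold, *Add2* 8.79-fold, *Hoxc8* 8.67-fold and *Hoxc9* 6.65-fold. With primary tumor replicate 6 left out, *Adra1a* was at least 71.0-fold higher in lung, *Slc38a5* 61.7-fold and *Lrat* 57.3-fold, and without unchallenged lung replicate 4 *Adra1a* was at least 101-fold higher.

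The share of single fibroblasts with a UMI was also counted. Each cell was thinned to 1000 UMIs, which left 167, 127 and 634 cells of primary tumor and 45, 104 and 168 of unchallenged lung. *Inmt* was found in 73.3, 70.2 and 66.7% of lung fibroblasts and in 0% of tumor fibroblasts, where 0 cells allow a share of up to 1.80%, 2.36% and 0.473%. *Fbn2* was found in 22.2, 20.5 and 18.5% of tumor fibroblasts and 0% of lung fibroblasts, which allows up to 6.67%, 2.88% and 1.79%. These limits are for cells with a UMI at this depth, not for cells that express the gene. *Postn* was found in 40.1, 46.5 and 33.4% of tumor and 2.22, 4.81 and 0% of lung fibroblasts. *Tcf21* was found in 33.3, 9.62 and 4.17% of lung fibroblasts, so it varied among libraries more than *Inmt* did.

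*Pdgfrb* was found in 28.1, 24.4 and 13.7% of tumor fibroblasts and 6.67, 7.69 and 4.17% of lung fibroblasts, the order of the summed levels. *Ccl2* was found in 11.4, 13.4 and 33.8% of tumor fibroblasts, but cells with a *Pecam1* UMI of the same libraries held it in 10.4, 3.28 and 25.2%. For *Slc2a1* these shares were 8.98, 7.87 and 12.8% and 6.67, 3.28 and 8.70%, and for *Mki67* 5.99, 3.94 and 4.89% and 5.83, 3.28 and 5.72%, so the fibroblast share of *Mki67* lay at the level of the *Pecam1* cells.

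In the *Pecam1* cells, which include cells with fibroblast genes, *Fbn2* was found in 0.417, 0 and 6.64%. *Tnc* was found in 0.833, 5.74 and 14.9% of them, against 26.3, 31.5 and 31.9% in fibroblasts. Both shares in the *Pecam1* cells were highest in primary tumor replicate 6. Median depth was 6660, 6168 and 2274 UMIs in the *Pecam1* cells of primary tumor and 4715, 3508 and 1763 in those of unchallenged lung. Without thinning, *Fbn2* was found in 47.3, 39.8 and 34.8% of tumor fibroblasts and *Inmt* in 80.0, 83.7 and 69.8% of lung fibroblasts. Of 65 genes compared by an exact two-sided permutation test over libraries, 54 reached p = 0.1, the smallest that 3 against 3 can give, and the smallest Benjamini-Hochberg adjusted p of these exact tests was 0.12. The 65 include the genes named for the largest differences without overlap in these libraries, so part of this separation was set by the choice. By level, 1237 of all 8229 genes tested also had no overlap with primary tumor higher, and 1566 with unchallenged lung higher.

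**Figure D4:**
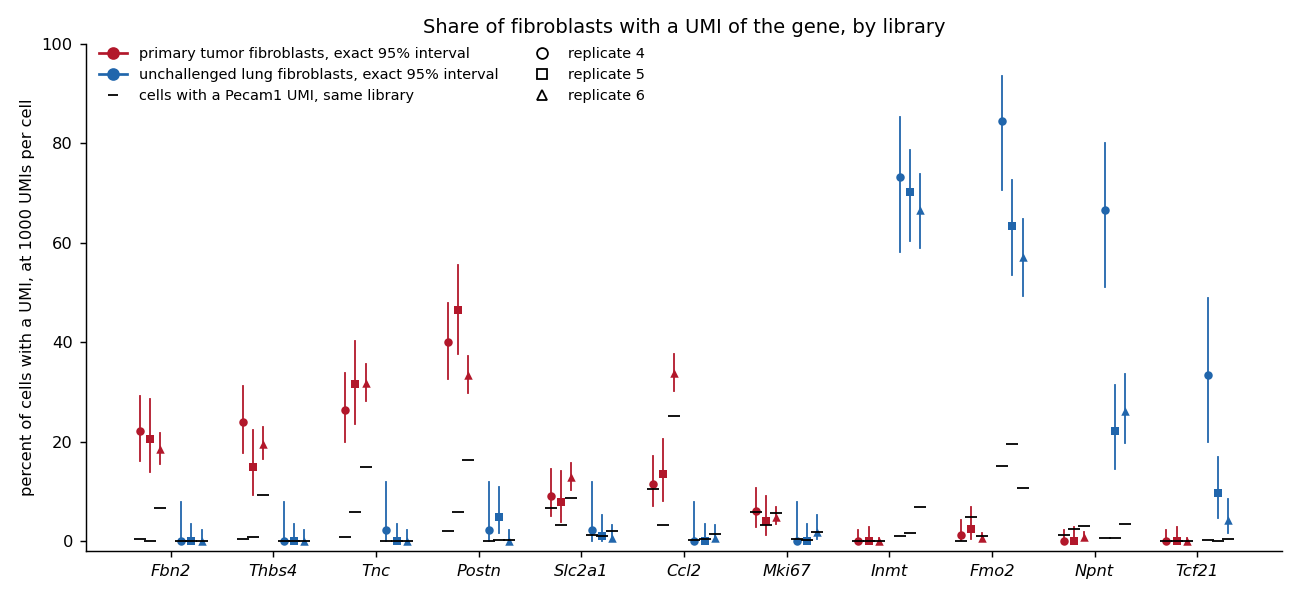
Percent of fibroblasts with a UMI of the gene after thinning every cell to 1000 UMIs (vertical axis), for each library of primary tumor (red) and unchallenged lung (blue), with exact 95% intervals of the counts as vertical lines and the share in cells with a *Pecam1* UMI of the same library as black dashes. *Inmt* lies between 66.7% and 73.3% in lung, *Fbn2* between 18.5% and 22.2% in tumor, and the black dashes of *Mki67* overlie the red points.

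RNA of other cell types was present in the fibroblasts and differed between the libraries. The melanoma list of 22 genes summed to 682, 1499 and 2682 CPM in primary tumor and 73.2, 93.9 and 146 CPM in unchallenged lung, and 6 of its 8 tested members were higher in tumor. Hemoglobin and other erythroid genes summed to 5400 CPM in primary tumor replicate 6 and to at most 30.2 CPM elsewhere. The neutrophil list summed to 223, 32.3 and 29.7 CPM in tumor and 813, 509 and 4519.9 CPM in lung, and the club cell list to 7.95, 1.40 and 0.990 and 28.5, 2536 and 2956 CPM, led by *Scgb1a1*.

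The macrophage list, which holds *Spp1*, summed to 6318, 1439 and 3841 CPM in tumor and 459, 484 and 7538 CPM in lung, and the endothelial list to 316, 483 and 768 and 443, 462 and 1251 CPM. Of the adipocyte markers 7 of 10 had no UMI, and keratinocyte markers stayed at or below 57.8 CPM in both tissues. Alveolar type 2, type 1, ciliated, lymphocyte, mesothelial, skeletal muscle and Schwann cell lists had sums of 36.8 to 2057, 107 to 309, 46.5 to 419, 2.81 to 696, 16.9 to 743, 12.6 to 139 and 99.4 to 728 CPM over the 6 libraries. Their part in the differences was not tested. With all other-cell markers and the genes of the rule left out before scaling, 1372 genes were called, and 1320 of the 1327 calls still tested kept their direction and their call.

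**Figure D5:**
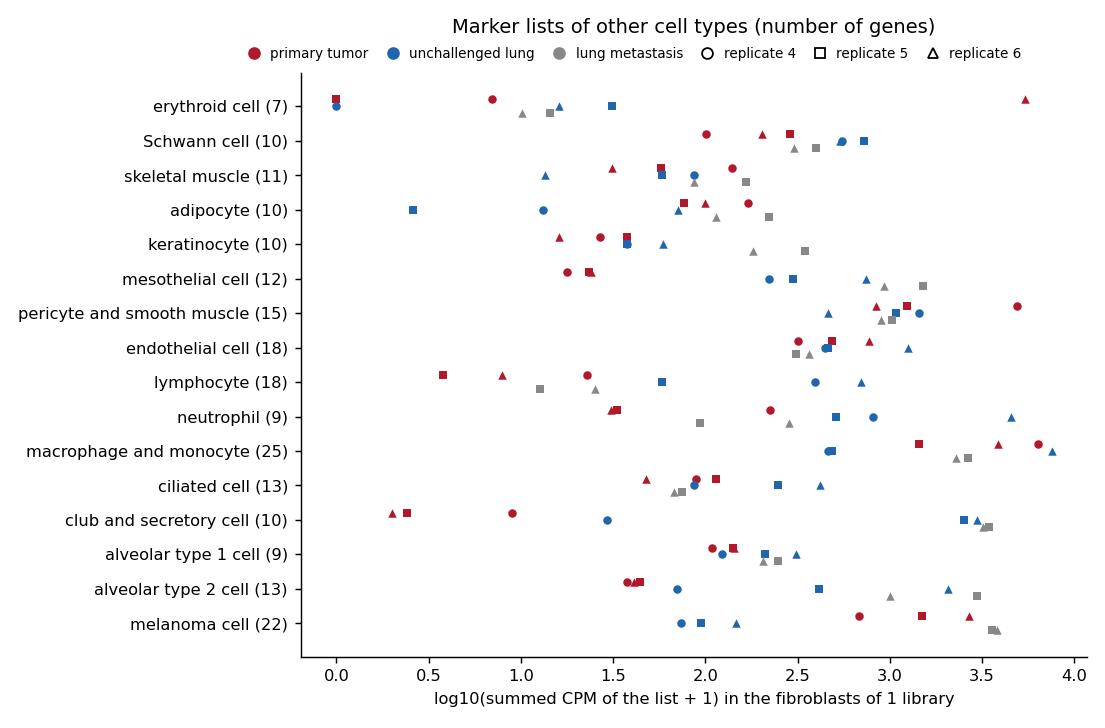
Summed level of each marker list of another cell type in the fibroblasts of each library (horizontal axis, log10 of summed CPM + 1), with the number of genes after the list name, colors for the tissue and shapes for the replicate number. Melanoma markers lie higher in the 3 primary tumor libraries than in the 3 unchallenged lung libraries, and erythroid markers stand out in primary tumor replicate 6.

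Fibroblasts of lung metastases, 224 and 61 cells of replicates 5 and 6 by the same rule, share the organ with unchallenged lung and the melanoma with primary tumor. By the library names they carry the mouse numbers of primary tumor replicates 5 and 6, so they may come from the same animals. Their values are given beside the others without a test, and replicate 6 was also deposited under the name of a melanoma cell sort. *Inmt* had 475 and 36.6 CPM in these libraries, *Fmo2* 372 and 94.4 CPM and *Tcf21* 8.33 and 0 CPM, which lie between the levels of primary tumor and unchallenged lung or at the tumor level. *Fbn2* had 25.8 and 12.2 CPM, *Thbs4* 11.7 and 0 CPM and *Tnc* 47.5 and 88.3 CPM, far below primary tumor. *Hoxc8* and *Hoxc9* had no UMI, as in unchallenged lung, and *Hoxa5* had 49.2 and 70.1 CPM.

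The 27 alveolar fibroblast genes summed to 3066 and 1365 CPM in lung metastasis, and the 24 glycolysis and hypoxia genes to 4962 and 5188 CPM, a level near that of primary tumor replicates 4 and 5. The 13 collagen genes summed to 3795 and 5161 CPM in lung metastasis, against 10713, 9489 and 8705 CPM in primary tumor and 1724, 1579 and 1193 CPM in unchallenged lung. All 26 collagen genes summed to 5231 and 6364 CPM in lung metastasis, all 30 alveolar fibroblast genes to 3791 and 1864 CPM and all 38 glycolysis and hypoxia genes to 5423 and 6151 CPM. Melanoma markers were higher there than in primary tumor, with 3573 and 3826 CPM, and club cell markers reached 3438 and 3208 CPM. Mesothelial markers, with 1516 and 926 CPM, keratinocyte markers, with 346 and 179.7 CPM, and adipocyte markers, with 220.0 and 113 CPM, also lay above every unchallenged lung library, where they reached 743, 57.8 and 70.3 CPM. *Fabp4* alone made up the adipocyte sums in lung metastasis. *Lgals7*, which the paper lists in its metastasis CAF signature, gave 300 and 67.0 CPM of the keratinocyte sums. Their part in the levels above was not tested.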

How the data were processed

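Single-cell libraries were made with the 10x 3' assay, and the UMI counts deposited by the authors for each cell and gene are not normalized. Per the labels and the study's methods, the authors aligned reads with Cell Ranger 6.1.1 to GRCm38 and filtered cells with Seurat 3.2.2 on the number of genes and on ribosomal and mitochondrial shares, so the deepest and shallowest cells were removed before deposit, and the removal of doublets was not stated for these files. No doublet caller was run here. Of 24 library names in the files, 6 matched no sample label by name and were not used, and 1 control lung library was matched to the only control label left, although its name gives another replicate number.

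Counts were summed over the fibroblasts of each library with 20 or more such cells and tested in edgeR 4.0.16 (R 4.3.3) with filterByExpr, TMM scaling, the quasi-likelihood F test on 3 against 3 libraries and Benjamini-Hochberg adjustment over 8229 genes, with genes called at an adjusted p below 0.05. The standard error is the log2 fold change divided by the square root of F. CPM is per 1000000 fibroblast UMIs of a library, without TMM factors. Where a tissue had no UMI of a gene, a bound against 3 counts pooled over its libraries stands in place of the fitted fold change, and with 1 to 3 UMIs the ratio of pooled UMIs with an exact 95% interval does. The procedure was tested on simulated data.

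The members and the gene lists were chosen with earlier results of these data known. The text names, in each direction, the 10 called genes of largest log2 fold change with a mean of at least 20 CPM, no overlap between libraries, no place in the rule or on a list of another cell type, and a level in fibroblasts at least that of the other cells in every library of the higher tissue, then up to 4 called members of each functional list, marker and rule genes and leading genes of other cell types. Outside this rule members given as not passing, for context, and 16 called genes were named after their values were seen, among them *Postn*, *Col12a1*, *Pgk1*, *Ldha*, *Eno1*, *Sqle*, *Hmgcs1* and *Cdkn2a*. DESeq2 1.42.0, RLE scaling, no filter, a replicate block, each library left out, all 3 tissues in 1 fit, other limits of the cell rule, thinning, equal numbers of cells and omission of mural cells or of marker genes were tried as alternatives. Sequencing run as a term and run 3 alone were added after seeing the data. Some members of the lists are not reported here. By the mouse numbers in the library names, tumor and lung libraries of the same replicate number came from different mice.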

Additional observations from a re-analysis of the deposited data

Results flagged for a closer look

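Fibroblasts in libraries too small for the comparison also held UMIs of the named genes. Primary tumor replicates 1 to 3, which share 1 sample label over 3 library names and held 15 fibroblasts with 64130 UMIs, had 35 UMIs of the 10 genes named as higher in primary tumor, or 546 CPM (exact 95% interval 380.1 to 759), from 6 of the 10 genes. The fitted libraries had 1061 to 1167 CPM in primary tumor and 0 in unchallenged lung. The same 15 cells had no UMI of the 10 genes named as higher in unchallenged lung, which allows up to 46.8 CPM, against 4364 to 6575 CPM in the fitted lung libraries.

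The unchallenged lung library taken as replicate 1, with 4 fibroblasts and 27731 UMIs, had 174 UMIs of the 10 genes named as higher in lung, or 6275 CPM (exact 95% interval 5377 to 7279), from all 10 genes, against 0.994 to 2.31 CPM in the fitted primary tumor libraries. Its library name says replicate 2, and it was given the label of replicate 1 because no other control label was left. It had 1 UMI of the 10 tumor genes, or 36.1 CPM. Both values were flagged because these libraries were outside the comparison and exceeded the level of the other tissue. With 15 and 4 cells they were not tested, and the intervals cover counting error only.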

How the results depend on the processing

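The count of 1350 genes called (587 higher in primary tumor, 763 in unchallenged lung) was 2586 (1225 and 1361) without the filter on low counts, 418 (178 and 240) with cells thinned to 1000 UMIs and 655 (270 and 385) with equal numbers of cells. With 1 library left out it ranged from 654 to 1407 (274 to 613 and 380 to 794), with 654 without primary tumor replicate 6 and 820 without unchallenged lung replicate 5. DESeq2 gave 1292 and run 3 alone 1506, and no gene called above was called in the opposite direction in any of the 21 settings. Of 159 called genes named in the text or its lists, 109 kept their call in every setting in which they were tested, and 50 lost it in 1 or more.

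Same-numbered libraries of the 2 tissues correlated in their deviations from the tissue mean at 0.044, 0.138 and 0.098, not all over 0.1, so the numbers were not taken as pairs, although each library correlated best with its own number. With the replicate block 1275 genes were called (554 and 721), and 1160 of the 1350 main calls were kept. It lost 4 of the 159 named calls. Under it the signs of *Serpinf1* (0.15), *Myh11* (0.063) and *Hspa1a* (-0.043) turned.

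Signs turned only for uncalled genes. Without the filter these were *Serpinf1* (0.031), *Myh11* (0.077) and *Tnxb* (0.063), and with thinning *Pcolce* (-0.029) and *Tnxb* (0.084). With equal cells they were *Pcolce* (-0.060), *Myh11* (0.17) and *Hspa1a* (-0.37). Without mural cells they were *Serpinf1* (0.076), *Tnxb* (0.083), *Hspa1a* (-0.075) and *Myl9*, which was then called higher in lung (-1.25, edgeR adjusted p = 0.0467). At a melanoma limit of 0.1% they were *Myh11* (0.038) and *Tnxb* (0.077). *Tnxb* also turned with libraries of 10 or more cells (0.078) and with 4 fibroblast genes (0.017). Run as a term turned *Serpinf1* (0.064), and run 3 alone turned *Pcolce* (-0.30), *Myl9* (-0.14) and *Tnxb* (0.20). With 1 library left out, log2 fold changes ranged from -0.48 to 0.71 for *Serpinf1*, -0.20 to 0.64 for *Pcolce*, -0.68 to 0.47 for *Myh11*, -0.10 to 1.25 for *Myl9*, -1.49 to 0.60 for *Tnxb*, -0.69 to 0.72 for *Hspa1a* and -0.43 to 1.32 for *Hspa1b*. The cause was not tested.

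Leaving out cells with a UMI of *Lyz2*, *S100a8*, *Scgb1a1*, *Sftpc*, *Dct* or *Hbb-bs* could not be fitted, since 5 or fewer cells were left in 3 libraries. Depth limits the genes near the filter: the smallest library held 245921 fibroblast UMIs, in which 3 counts are 12.2 CPM. Organ and tumor cannot be told apart in this comparison.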
